A study of Homo sapiens with 30 samples.

Results

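JURKAT, a line grown from a T-cell acute lymphoblastic leukaemia (T-ALL), was compared with 4 other malignant T-cell lines in the absence of drug. The question was which genes set this line apart at baseline, before any chemotherapy. The members were the 3 arrays titled as untreated JURKAT, set against the 12 untreated arrays of KARPAS (KARPAS-299, anaplastic large cell lymphoma), HH (cutaneous T-cell lymphoma), HDMAR (HD-MAR-2, T-cell leukaemia) and SUPT1 (SUP-T1, T lymphoblastic lymphoma), 3 arrays a line, out of 30 arrays in the series. The 15 remaining arrays carried RNA of the same lines after 24 h with CHOEP (cyclophosphamide, doxorubicin, vincristine, prednisone and etoposide), were normalised together with the untreated ones and served to see whether a difference was also there in other cultures. The paper set the CHOEP dose by inhibitory concentration, which it lists by line, so the dose was not the same for all lines. All cells grew in the same serum-supplemented RPMI medium, and the labels name no engineered allele. The submitters describe the 3 arrays of a group as biological replicates of 1 line, so the spread between them is that of cultures of 1 line, and JURKAT stands here for itself, not for T-ALL.

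T-ALL arises from thymocytes, the immature T cells of the thymus. Many cases switch on a transcription factor that thymocytes normally silence, and TAL1 is the best known of these. TAL1 is a basic helix-loop-helix protein that binds DNA together with E proteins such as TCF12 and, through LMO proteins, with GATA3 and RUNX1. The thymic programme itself runs over NOTCH signalling, the recombinases RAG1 and RAG2, the polymerase DNTT and the assembly of the CD3 complex, whereas mature T cells acquire cytokine receptors, homing receptors and, when activated in humans, MHC class II.

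Expression was read on Illumina HumanHT-12 v4 beadchips. A probe counts as detected where its signal exceeds that of the negative control probes (detection p under 0.01). The untreated arrays detected between 16003 and 17923 probes and had median signals between 97.1 and 122.6, and each array correlated best with another array of its own line (highest r between 0.98932 and 0.99594). All arrays of 1 line lay on 1 chip, so line and chip cannot be told apart, and large differences between detected and undetected signals are therefore given most room. Levels below are normalised log2 intensities of 1 probe a gene, on which 1 unit is a doubling, and levels of different genes are not compared. All 15 tested T-lineage markers were detected on each of the 3 JURKAT arrays, among them CD3D (14.79, 14.54 and 14.72) and LCK (11.38, 11.40 and 11.36). HDMAR and SUPT1 detected all 15 as well, so these markers show a T lineage but do not tell JURKAT from those lines.

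Of 11955 genes tested, 374 (3.13%) were at least 2-fold higher in JURKAT than in each of the 4 lines at an adjusted p under 0.05 in each comparison, and 151 (1.26%) were lower than in each by the same rule. Against the mean of the 4 lines, each line weighted alike, 1407 genes (11.8%) were higher and 1203 (10.1%) lower. Against single lines JURKAT was higher and lower for 16.1% and 14.7% of the genes in the comparison with KARPAS, 17.7% and 14.7% with HH, 14.6% and 14.4% with HDMAR, and 14.1% and 13.6% with SUPT1. Applied to the other lines in turn, the rule of all 4 comparisons gave 730 higher and 336 lower genes for KARPAS, 569 and 399 for HH, 337 and 140 for HDMAR, and 370 and 239 for SUPT1. JURKAT thus came after KARPAS and HH in higher genes, and HDMAR alone had fewer lower genes.

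All 374 higher genes were detected on the 3 JURKAT arrays, and 42 of them were detected on all 12 other arrays. At the other end, 177 were undetected in all 4 other lines and 320 in at least 1. A gene was tested if 3 untreated arrays detected it, and 208 of the 374 reached that number only with the JURKAT arrays, as did 350 of all 11955 genes, so the filter has a part in their count. Where a line had no detected array, its level was replaced by a detection bound, the higher of the lowest detected signal on the array and the probe's own signal, and folds against it read "at least". Differences from the mean of the lines, in log2 units, are those fitted, with undetected signals at their measured level, and are no bounds. With these bounds 112 genes remained at least 4-fold above each line. Of the 151 lower genes, 47 were undetected in JURKAT, 81 were detected on its 3 arrays, and 25 were at least 4-fold below each line. The median difference from the mean of the 4 lines was 2.64 log2 units for the higher and −2.22 for the lower genes, against −0.0253 over all genes tested, and 1.91, −2.04 and −0.075 with undetected lines at their bound.

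**Figure D1:**
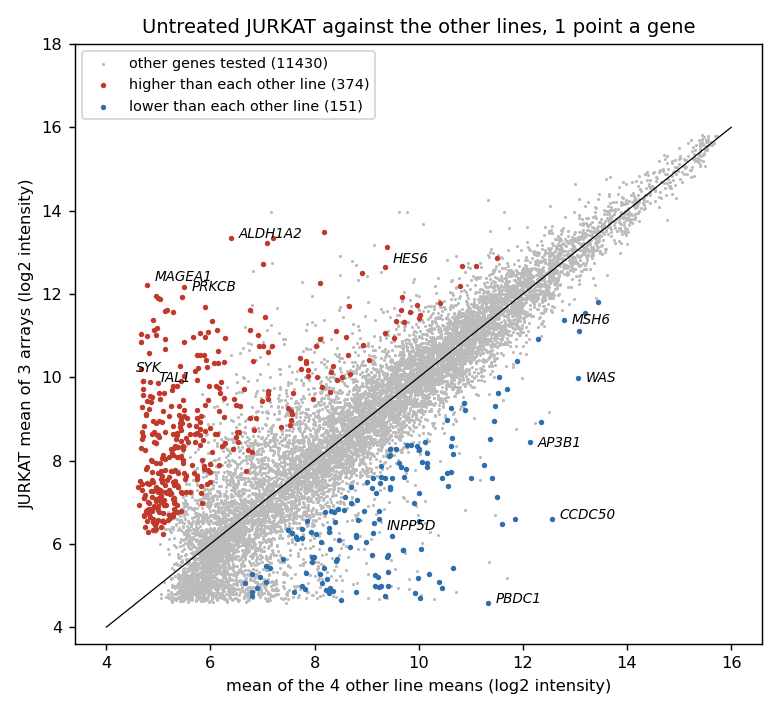
Mean log2 intensity of the 3 untreated JURKAT arrays (vertical axis) against the mean of the 4 other line means (horizontal axis), 1 point a gene, with the diagonal of equality. The 374 higher genes (red) crowd at the left edge, where the other lines are near the detection limit, and the 151 lower genes (blue) spread below the diagonal.

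The promoters of 4 members are shown because the members differ in the region in which transcription starts and because several of the higher genes are near-identical copies. Sequences are from RefSeq on GRCh38.p14, 250 bases before to 50 after the annotated start of the gene, 5′ to 3′ on the strand of the gene. For TAL1 (chr1:47232286-47232585, minus strand) the capitals mark the single match to the GATA-type motif AGATAA, on the opposite strand, beginning 35 bases before the start. For the retinaldehyde dehydrogenase ALDH1A2 (chr15:58065662-58065961, minus strand), the immune GTPase GIMAP4 (chr7:150567140-150567439, plus strand) and the cancer-testis antigen GAGE12C (chrX:49531927-49532226, plus strand) the capitals mark CpG dinucleotides.
TAL1: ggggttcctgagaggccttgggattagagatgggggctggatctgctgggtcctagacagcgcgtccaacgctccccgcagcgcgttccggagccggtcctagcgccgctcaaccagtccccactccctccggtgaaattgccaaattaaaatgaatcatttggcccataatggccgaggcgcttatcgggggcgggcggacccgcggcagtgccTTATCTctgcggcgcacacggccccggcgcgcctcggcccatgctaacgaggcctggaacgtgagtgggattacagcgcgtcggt
ALDH1A2: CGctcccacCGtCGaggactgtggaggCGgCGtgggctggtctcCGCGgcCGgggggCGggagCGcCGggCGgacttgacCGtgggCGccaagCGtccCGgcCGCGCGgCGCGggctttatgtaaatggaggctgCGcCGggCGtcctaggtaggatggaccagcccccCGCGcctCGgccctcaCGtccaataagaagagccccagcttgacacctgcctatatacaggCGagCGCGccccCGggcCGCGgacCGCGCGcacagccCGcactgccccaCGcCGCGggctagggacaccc
GIMAP4: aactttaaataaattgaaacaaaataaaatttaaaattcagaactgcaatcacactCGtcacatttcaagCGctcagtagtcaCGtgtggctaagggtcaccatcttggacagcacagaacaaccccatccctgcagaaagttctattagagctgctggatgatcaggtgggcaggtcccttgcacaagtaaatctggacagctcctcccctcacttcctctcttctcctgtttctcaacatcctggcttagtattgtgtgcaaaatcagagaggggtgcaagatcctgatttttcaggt
GAGE12C: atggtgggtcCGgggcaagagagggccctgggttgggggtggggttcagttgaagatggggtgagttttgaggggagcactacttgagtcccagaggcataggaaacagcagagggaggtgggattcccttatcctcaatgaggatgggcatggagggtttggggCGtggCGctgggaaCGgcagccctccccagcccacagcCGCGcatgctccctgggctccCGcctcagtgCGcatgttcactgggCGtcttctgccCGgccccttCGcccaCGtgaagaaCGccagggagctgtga
The ALDH1A2 window held 41 CpG dinucleotides, that of GAGE12C 13 and that of GIMAP4 3, against a median of 26 over the 9580 tested genes with such a window. So genes with CpG-dense and with CpG-poor starts were both among the higher genes. The window printed for GAGE12C is identical, base for base, in 7 GAGE genes (GAGE12C, GAGE12D, GAGE12E, GAGE12F, GAGE12H, GAGE12J and GAGE2A), which share near-identical transcripts.

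Promoter windows were found for 283 of the 374 higher and 117 of the 151 lower genes. The motif AGATAA, on either strand, lay in 6.01% of the windows of the higher genes and 1.71% of those of the lower genes, beside 5.06% of the windows of all tested genes and 10.5% of all 27305 windows. The E-box CAGATG, the form that TAL1 complexes prefer, lay in 11.7% and 12% of the windows of the higher and lower genes, beside 9.35% of those of tested genes and 14.8% of all. The RUNX-type motif TGTGGT lay in 9.89% and 12%, beside 9.57% and 13.1%, and the ETS-type motif ACCGGAAGT in 0% and 1.71%, beside 2.1% and 1.07%. AGATAA and CAGATG share the letters AGAT. The shares are descriptions, and a missing match says only that these letters are not in the window.

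TAL1 itself was detected in JURKAT alone. Its level was 9.95, 9.86 and 9.83 on the 3 arrays, and on the 12 other arrays, none of which detected it, the signal lay between 4.68 and 5.04. The groups were far apart, at least 11.6-fold for the nearest line (adjusted p against the mean of the lines = 1.38e-16). LMO1, the bridging protein of the TAL1 complex, showed the same pattern at a lower level, 7.76, 7.43 and 7.16 in JURKAT and undetected elsewhere, at least 2.15-fold (adjusted p = 1.23e-12). The neuroblastoma oncogene MYCN stood at 7.81, 7.66 and 7.76 and was also undetected in the other lines, at least 2.64-fold (adjusted p = 1.68e-11). Of 18 T-ALL transcription factor oncogenes on the array 8 were tested, and these 3 were among the 8 only because JURKAT detected them. None of the other 5 was higher than the mean. MEF2C was lower, with a high level in HH, and LYL1 did not pass the rule (−0.16), nor did the TAL1 partner GATA3 (0.44). The haematopoietic LIM protein LMO2 was detected on 2 of the 3 JURKAT arrays and on none of the others, and did not reach the 3 arrays needed for a test. TLX1 and TLX3 were detected on no untreated array.

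ALDH1A2, which makes retinoic acid and is a known target of the TAL1 complex in T-ALL, had the widest margin over its nearest line among the higher genes which that line detected. Genes undetected elsewhere have only bounds and are not ranked against it. ALDH1A2 stood at 13.25, 13.38 and 13.37 in JURKAT, 7.26 ± 0.10 in HDMAR and 7.33 ± 0.13 in SUPT1 (mean ± SD, n = 3), and was undetected in KARPAS and HH. JURKAT lay 64.4-fold above SUPT1, the nearest line (adjusted p against the mean = 3.07e-17). Among the 19 tested TAL1 partners and target genes, 3 were higher than in each line (ALDH1A2, GIMAP4 and GIMAP2), 9 were higher than the mean and 1 (PTCRA) lower (47.4% and 5.26%, beside 11.8% and 10.1% of all genes tested), with a median difference of 0.922. The partners TCF12 and RUNX1 were among the 9, at least 1.94 (HH had no detection) and 1.15 log2 units above the mean of the lines, as were the kinase CDK6 (1.85) and ARID5B (1.21). This list was drawn from what is known of T-ALL lines, JURKAT included, so its direction is not independent evidence.

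GIMAP4, one of the GTPases of immune-associated proteins that act in lymphocyte survival, stood at 9.85, 9.70 and 9.83 in JURKAT and was undetected on the 12 other arrays, at least 10.9-fold (adjusted p against the mean = 8.16e-15). It was tested only because the JURKAT arrays detected it. GIMAP2 was detected everywhere, between 10.98 and 11.23 in JURKAT and between 8.79 and 10.19 in the others. The nearest line, KARPAS, was only 2.09-fold lower. GIMAP7 was as high in SUPT1 (11.03) as in JURKAT (10.82) and passed the comparisons with KARPAS, HH, HDMAR and the mean of the lines (at least 10.2-fold) but not that with SUPT1. Of 6 tested GIMAP genes 5 were higher than the mean of the lines (beside 11.8% of all genes tested), and GIMAP8, undetected in JURKAT, was detected in KARPAS. GIMAP7, GIMAP4, GIMAP2, GIMAP1 and GIMAP5 followed each other without interruption in the order of tested genes on chromosome 7.

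A pair of degradation enzymes of the retinoic acid pathway, chosen after their values were seen, were higher in JURKAT as well. CYP26A1 reached 9.07 ± 0.12 and CYP26B1 10.40 ± 0.09 in JURKAT, and SUPT1 was the nearest line for both (6.48 and 7.45). The other lines had no detection. Both were higher than in each line, 6.02-fold and 7.73-fold above SUPT1 (adjusted p against the mean = 2.72e-15 and 6.77e-15). Of 11 tested genes of retinoid synthesis, breakdown, binding and reception these were, with ALDH1A2, the 3 that were higher. Over all genes tested 3.13% were higher than in each line and 11.8% than the mean. The receptor RXRA was lower than the mean (−1.03), and RARA (−0.65) and RDH10 (0.04) did not pass the 2-fold rule.

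**Figure D2:**
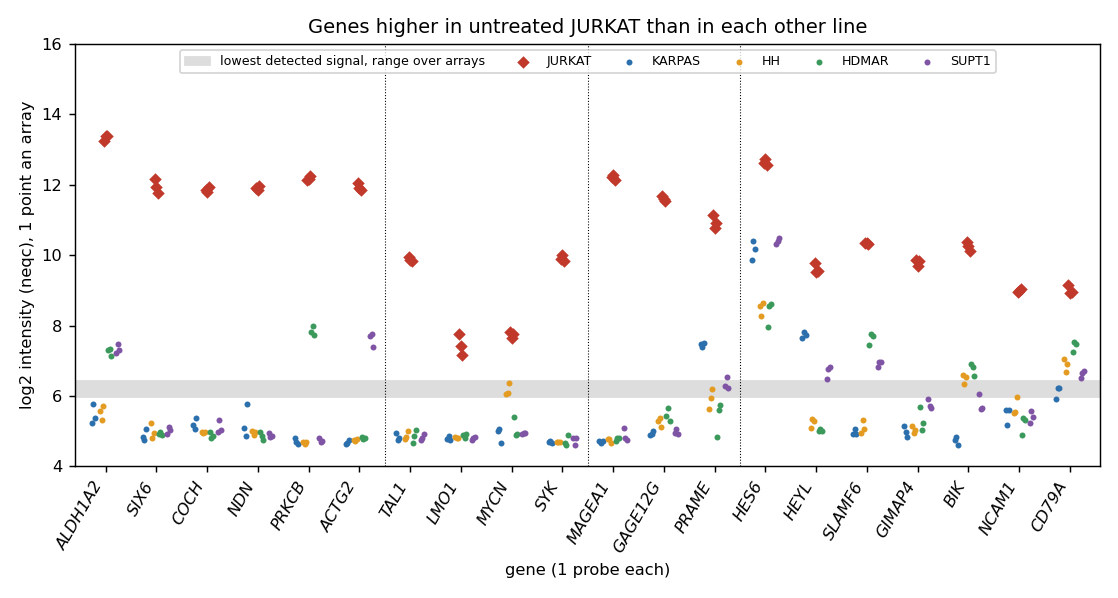
Log2 intensity of 20 genes higher in untreated JURKAT than in each other line, 1 point an array (3 arrays a line, JURKAT as red diamonds), with the range of the lowest detected signal in grey. Dotted lines part leading genes, oncogenes with SYK, cancer-testis genes, and others. In every gene the 3 JURKAT points lie above the 12 others, which the rule that chose these genes makes likely.

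Several genes with high bounds are best known from other tissues. The genes of this paragraph were picked for the size of their gap to the nearest line. SIX6, NDN, COCH, HBQ1 and PNMA2 also entered the test only with the JURKAT arrays, so a low p adds no support of its own. SIX6, a homeobox factor of eye and pituitary, stood at 12.16, 11.94 and 11.78 and was undetected elsewhere (at least 49.0-fold). Its adjusted p against the mean, with undetected signals at their measured level, was 1.45e-17. NDN (necdin, an imprinted gene of neurons) was at 11.91, 11.86 and 11.97 (at least 47.5-fold), and COCH (cochlin, of the inner ear) at 11.85, 11.81 and 11.95 (at least 46.1-fold), again with no other array detecting them. The globin gene HBQ1, the neuronal antigen PNMA2 and KLHL35 followed at 11.17, 11.58 and 11.34 on average, between at least 28.4-fold and at least 37.8-fold above the nearest line, although 1 array each of HH, HDMAR and SUPT1 detected KLHL35. Among genes also measured in another line, RAP1GAP, which switches off the GTPase RAP1, was 28.7-fold and the smooth muscle actin ACTG2 19.9-fold above the nearest line, SUPT1, and the microtubule-binding CLIP3 3.98 log2 units above HDMAR. Protein kinase C beta (PRKCB), a kinase best known from B-cell receptor signalling, was at 12.13, 12.15 and 12.24 against 7.85 in HDMAR and no detection in the rest, 20.0-fold above HDMAR. Its 5 probes differed in size, from 2.94 to 6.68 log2 units over the mean, but not in direction.

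Of 34 cancer-testis antigens on the array, whose genes are used in the germ line and in tumours, 9 were higher in JURKAT than in each line, 10 than the mean, and 2 (CTCFL and LDHC) were lower. Over all genes tested 3.13% were higher than in each line, and 11.8% were higher and 10.1% lower than the mean. The remaining cancer-testis members were mostly untested (21), 19 of them detected on no untreated array. Of the 13 tested, 9 reached the test only with the JURKAT arrays, so their high share (median 2.33, or 1.11 with undetected lines at their bound) is in part set by the filter. Of the 4 that other lines detected often enough, PRAME was higher than in each line. MAGEA1 stood at 12.23, 12.28 and 12.13 and was undetected on the 12 other arrays, at least 58.6-fold (adjusted p against the mean = 1.95e-18). PRAME was at 11.15, 10.76 and 10.93, with KARPAS next at 7.46, and MAGEA4 at 8.38, 8.41 and 8.46 with no other detection. Of 13 MAGEA genes on the array 7 were higher than in each line, and of 12 GAGE genes 11, the latter between 7.09 (GAGE12D) and 11.61 (GAGE12G) in JURKAT and undetected elsewhere. These were all the tested ones, and each had entered the test only with the JURKAT arrays. Probes of such near-identical copies can pick up one another's transcripts, so the number of active copies is uncertain. The 3 tested CT45 genes followed, with CT45A3 detected in SUPT1 as well.

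Of 51 tested genes of the T-cell receptor complex and its signalling, 2 were higher and 1 lower than in each line, close to the shares of all genes tested (3.13% and 1.26%). Against the mean 16 were higher and 7 lower (31.4% and 13.7%, beside 11.8% and 10.1% of all genes tested, median 0.356). SYK, the kinase that B cells use where T cells use ZAP70, was at 9.88, 10.01 and 9.85 in JURKAT and undetected on all other arrays, at least 11.9-fold (adjusted p against the mean = 2.60e-17). Only the JURKAT arrays brought SYK into the test. ZAP70 itself, at 10.45, 10.56 and 10.23, lay within the range of the other lines (9.26 to 11.74). The second gene higher than in each was the adaptor SLA2, a brake on receptor signalling, at 8.95, 8.45 and 8.57 against 7.32 in HDMAR. The phosphatase PTPRC (CD45), which primes LCK, was called lower, but its JURKAT arrays disagreed (6.16, 7.76 and 8.07), and without the first of them the difference from HDMAR was −0.92 and that from the mean went from −2.12 to −1.53.

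CD3D, CD3E and CD3G were at 14.68 ± 0.13, 10.24 ± 0.11 and 11.73 ± 0.25, below HDMAR and SUPT1 and above KARPAS, which detected neither CD3E nor CD3G. The 6 T-lineage markers called higher than the mean were LCK, CD7, BCL11B, CD2, LAT and CD3G, of 15 tested (40%, beside 11.8% of all genes tested). Lines without detection entered that mean, KARPAS and HH for LCK, and KARPAS for CD7, CD2, BCL11B and CD3G, and 1 HH array detected CD7. When KARPAS was left out, CD2 (0.01), BCL11B (0.36) and CD3G (−0.80) no longer passed. CD2 and CD3G also missed 2-fold with the authors' values (0.99 and 0.70) and with quantile normalisation alone (0.94 and 0.64), CD2 without SUPT1 (0.93), and CD3G without the second or the third JURKAT array (0.98 and 0.96). No T-lineage marker was higher or lower than in each line.

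Thymocyte-stage genes had a median of 1.60 (0.869 with undetected lines at their bound), with 13 of 23 higher and 4 lower than the mean (56.5% and 17.4%, beside 11.8% and 10.1% of all genes tested). JURKAT detected 18 of them on all 3 arrays, and of these 18 HDMAR detected 17, SUPT1 16, HH 6 and KARPAS 5 on all of theirs. RAG1 was at 9.35, 9.23 and 9.26 in JURKAT, 9.06 in HDMAR and 9.51 in SUPT1, and undetected in KARPAS and HH. Its 2 probes disagreed in sign (−0.6 and 1.9 log2 units). DNTT was at 9.61, 9.49 and 9.66, above SUPT1 (8.61) and far below HDMAR (13.90). The members higher than in each were IGLL1, the surrogate light chain (8.81, 8.61 and 8.46), and CD34, a stem cell marker (6.93, 7.24 and 7.09). CD34 entered the test only with the JURKAT arrays and was close to the detection limit, at least 1.67-fold above the nearest line. Its difference from the mean missed 2-fold with the authors' values (0.93) and with quantile normalisation alone (0.90). Undetected in JURKAT were 4 of the 23, among them PTCRA, the pre-T-cell receptor alpha chain, at 12.64 in SUPT1 and 11.22 in HDMAR. The co-receptor CD8A was likewise undetected in JURKAT, at 13.47 in SUPT1 and 9.98 in HDMAR. CD4 was at 8.54 ± 0.05.

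NOTCH receptors and targets split, with 7 of 26 higher and 7 lower than the mean (26.9% each, beside 11.8% and 10.1% of all genes tested, median −0.153). HES6, a helix-loop-helix factor, was detected in all lines and was at 12.62, 12.72 and 12.57 in JURKAT, 4.69-fold above SUPT1, the next line. HEYL (9.79, 9.53 and 9.55) was 3.70-fold above KARPAS, and the ligand DLL1 (6.86, 7.34 and 7.01) was detected in JURKAT alone. DLL1 thus entered the test only with the JURKAT arrays. HES4 was high in JURKAT (13.96), HDMAR (14.29) and SUPT1 (14.60) and undetected in KARPAS and HH. HES5, HEY1, DTX3 and NRARP were among those lower than the mean.

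SLAMF6, a receptor that supports T-cell help, was at 10.36, 10.35 and 10.32 against 7.63 in HDMAR, 6.55-fold. It was the 1 higher member of 22 co-stimulatory and checkpoint receptors. Of these 11 were lower than the mean (50%, beside 10.1% of all genes tested, median −1.01, or −0.855 with undetected lines at their bound). Beside these, 3 markers of other blood cells were higher than in each line: NCAM1 (CD56, of NK cells) at 8.96, 8.98 and 9.03, CD79A (of B cells) at 9.15, 8.93 and 8.96, and CEBPA (a myeloid factor) at 7.61, 7.51 and 7.49. Over all genes tested 3.13% were higher than in each line. NCAM1 and CEBPA were undetected elsewhere and entered the test only with the JURKAT arrays. CD79A was detected in HH, HDMAR and SUPT1, with HDMAR next at 7.42. Of 29 such markers on the array 22 were undetected on every JURKAT array, among them MS4A1, PAX5, MPO, SPI1, HBB, GATA1 and PF4. The summed linear level of the 11 tested markers was 2337 to 2654 in JURKAT, inside the span of the other lines (882 in HDMAR to 4259 in KARPAS). Their part in the results was not tested.

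**Figure D3:**
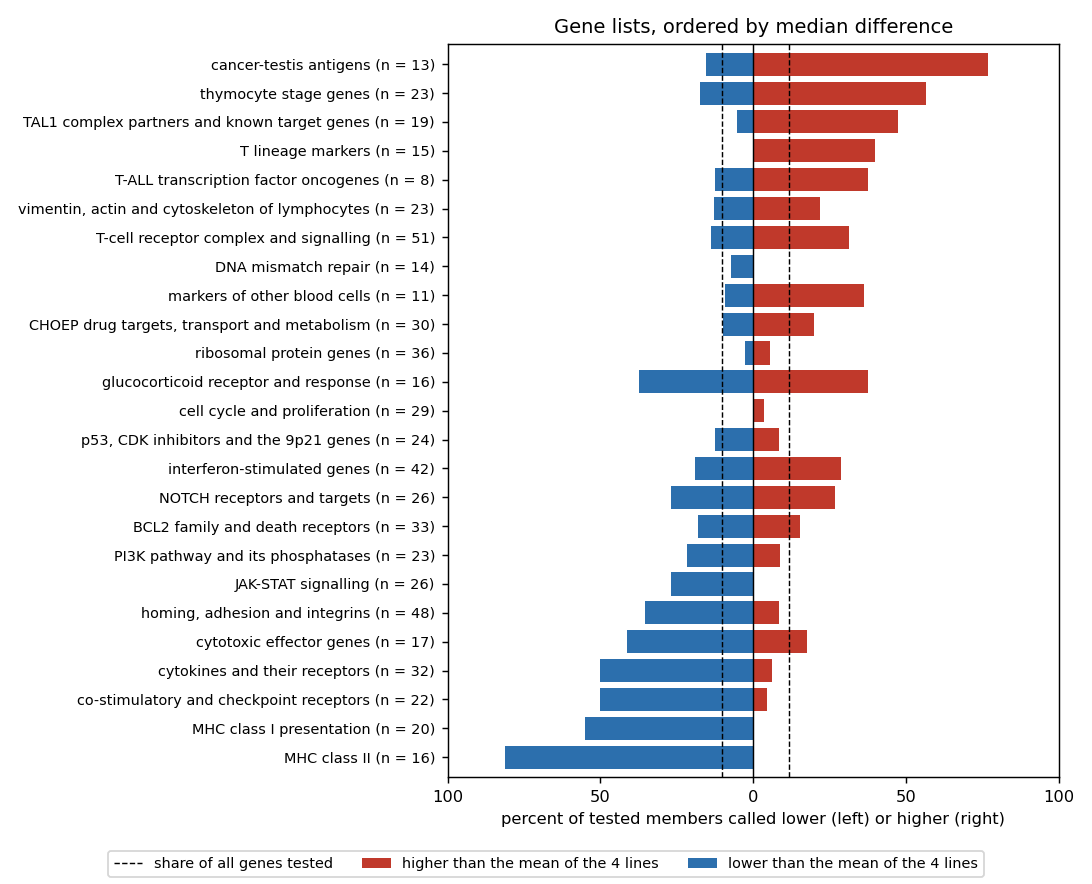
Percent of the tested members of each gene list that were higher (red, right) or lower (blue, left) in JURKAT than the mean of the 4 lines, ordered by median difference, with the shares over all 11955 genes as dashed lines (11.8% and 10.1%). Cancer-testis genes, 9 of whose 13 tested members entered the test only with the JURKAT arrays, and thymocyte-stage genes are at the top and MHC class II and class I genes at the bottom.

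MHC genes were the lists with the lowest medians. Of 16 tested class II genes, which present antigen to CD4 T cells, 13 were lower than the mean and none was higher (81.2% lower, beside 10.1% of all genes tested, median −3.23, or −2.84 with undetected lines at their bound). CD74, the invariant chain, was undetected in JURKAT and SUPT1 and stood at 14.99 in KARPAS, 14.69 in HH and 11.51 in HDMAR. HLA-DPA1, HLA-DRB1 and HLA-DRB5 showed the same division into lines with and without the transcript, so no class II gene was lower in JURKAT than in each line. Class I genes differed in that respect. HLA-B was at 6.81, 6.34 and 6.27 in JURKAT and between 7.35 and 14.59 on the other arrays, 2.05-fold below SUPT1 and 34.7-fold below the mean of the lines (adjusted p = 1.37e-15). HLA-E (8.81 to 9.04), HLA-F (7.93, 7.37 and 7.47) and the immunoproteasome subunit PSMB9 (7.78, 7.51 and 7.84) were likewise below each line, SUPT1 being the nearest each time, by 2.05-fold, 2.31-fold and 3-fold. Of 20 class I genes 11 (55%) were lower than the mean and none higher (median −1.21), the peptide transporter genes TAP1 (−1.99) and TAP2 (−1.21) included. In the order of tested genes on chromosome 6, 12 neighbours from HLA-DRA to HLA-DMA, with TAP2, PSMB8, TAP1 and PSMB9 between them, were all lower than the mean.

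The lower genes were led by PBDC1. It was undetected on the 3 JURKAT arrays (4.62, 4.56 and 4.54) and between 10.93 and 11.93 on the other 12, at least 31.2-fold below the nearest line (adjusted p = 5.07e-17). CHCHD5, a mitochondrial protein, was also undetected (4.70, 4.74 and 4.67) against 8.65 to 11.42. TRIB1, a pseudokinase, was undetected against 8.96 to 12.70, at least 7.65-fold. Each of these 3 rests on 1 probe.

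Among lower genes that JURKAT still expressed, the actin regulator WAS, mutated in Wiskott-Aldrich syndrome, was at 9.95, 9.85 and 10.15 against 12.68 to 13.58 on the other arrays, 7.27-fold below SUPT1. AP3B1, a subunit of the AP-3 adaptor, was at 8.62, 8.38 and 8.30 against 11.98 to 12.44, 11.8-fold below the nearest line. In these genes the 4 other lines were nearly level with each other and JURKAT stood apart. CYTIP, which regulates lymphocyte adhesion, was 13.5-fold below the nearest line by its highest probe (7.42, 6.72 and 7.22), though its 3 probes ranged from −4.38 to −1.29. S100A6, a calcium-binding protein, was at 6.60, 6.49 and 6.69 against 9.63 to 14.00, and its relative S100A11 was undetected in JURKAT and detected in each other line. CCDC50, PFKM, KAT6A, TGFBRAP1 and GATAD2B belonged to the same group, between 5.82-fold and 8.76-fold below the nearest line, GATAD2B being detected on 1 and TGFBRAP1 on 2 of the JURKAT arrays.

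**Figure D4:**
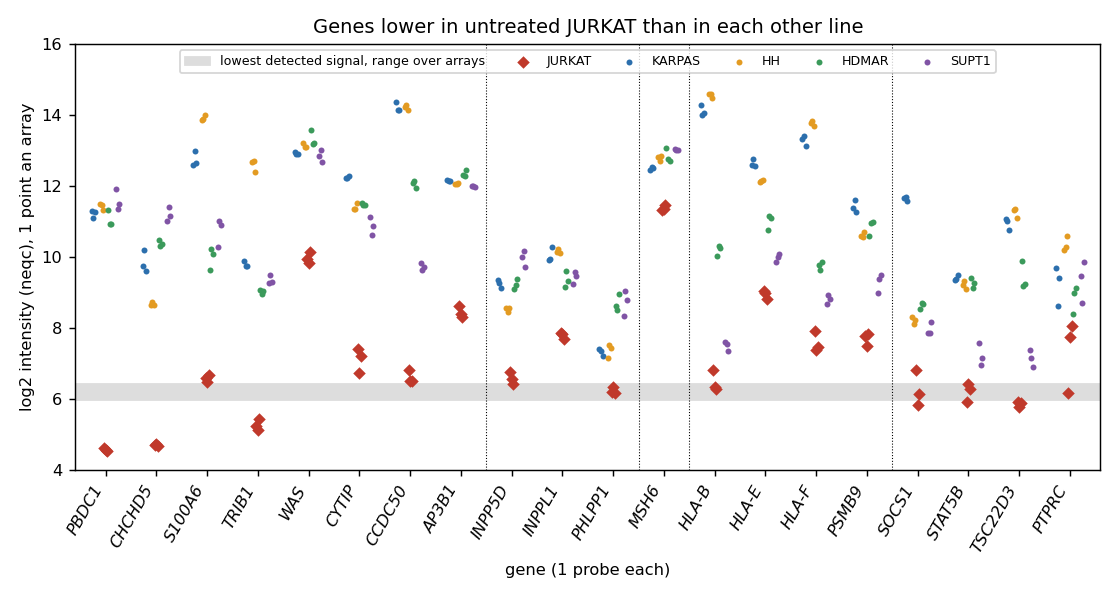
Log2 intensity of 20 genes lower in untreated JURKAT than in each other line, 1 point an array (3 arrays a line, JURKAT as red diamonds), with the range of the lowest detected signal in grey. Dotted lines part leading genes, phosphatases, MSH6, class I genes, and signalling genes, and PTPRC is the gene whose JURKAT points are spread widest (6.16 to 8.07).

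Several phosphatases that restrain PI3K signalling were lower in JURKAT than in each line. INPP5D (SHIP1), the phosphatase that removes the 5-phosphate from PIP3 in blood cells, was at 6.77, 6.58 and 6.43 against 8.45 to 10.17 on the other arrays, 3.81-fold below HH, the nearest line (adjusted p against the mean = 1.84e-12). Its relative INPPL1 (SHIP2) was at 7.87, 7.84 and 7.68 against 9.14 to 10.29, 2.94-fold below HDMAR, and PHLPP1, which dephosphorylates AKT, was between 6.18 and 6.35 against 7.15 to 9.03. In none of these 3 did the groups overlap, which the rule that picked them makes likely. Of 23 PI3K genes tested these were the 3 that were lower than in each line, and PIK3IP1 (−1.58) and RPTOR (−1.62) were lower than the mean. Over all genes tested 1.26% were lower and 3.13% higher than in each line. TSC1, a brake on mTOR, was the 1 member higher than in each line, at 10.85, 11.03 and 10.95 against 9.24 to 9.97, but its 3 probes ranged from 0.0 to 1.4. In the list 5 genes were lower and 2 higher than the mean (21.7% and 8.7%, beside 10.1% and 11.8% of all genes tested, median −0.264).

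MSH6, which recognises base mismatches, was at 11.33, 11.34 and 11.45 against 12.44 to 13.08, 2.17-fold below KARPAS (adjusted p against the mean = 6.09e-10). It was the only called member of 14 tested mismatch repair genes (7.14% lower than the mean, beside 10.1% of all genes tested, median 0.190). BAX, an executioner of apoptosis, was lower than the mean (−1.22), but SUPT1 was below JURKAT (7.24 against 7.82), its second probe gave −0.42, and it missed 2-fold without HH (−0.93) or HDMAR (−0.89). In the BCL2 family and death receptors 5 of 33 were higher and 6 lower than the mean (15.2% and 18.2%, beside 11.8% and 10.1% of all genes tested). The BH3-only gene BIK was the 1 member higher than in each line (10.37, 10.27 and 10.11, 11.2-fold above HDMAR). CFLAR, an inhibitor of caspase-8, was the 1 lower (7.02, 7.49 and 7.17, 2.09-fold below SUPT1). Over all genes tested 3.13% were higher and 1.26% lower than in each line, so these single calls are not read as a trait of the list. CDKN2A and MTAP, neighbours on 9p21, were undetected in JURKAT. CDKN2A was also undetected in SUPT1, and MTAP in KARPAS.

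Cytokine and cytokine receptor genes were more often lower than higher in JURKAT. Of 32 cytokines and receptors 16 were lower and 2 (TGFBR2 and IL32) higher than the mean (50% and 6.25%, beside 10.1% and 11.8% of all genes tested). The median was −0.988, or −0.803 with undetected lines at their bound, and none differed from each line. IL2RA was high in KARPAS (13.36) and undetected elsewhere, and IL2RB was at 6.70 in JURKAT, 7.35 in SUPT1 and above 10 in the others. In the JAK-STAT list 7 of 26 were lower than the mean (26.9%, beside 10.1% of all genes tested) and none higher. SOCS1, a feedback inhibitor of JAK kinases, was at 6.83, 5.82 and 6.15 against 7.85 to 11.69, 3.23-fold below SUPT1, and STAT5B at 5.93, 6.44 and 6.27 against 6.96 to 9.50, 2.04-fold below SUPT1. Both were detected on 2 of the 3 JURKAT arrays, and the groups did not overlap, which the rule that picked them makes likely.

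For the lists of this paragraph the shares of all genes tested were 11.8% higher and 10.1% lower than the mean. Interferon-stimulated genes went both ways, with 12 of 42 higher and 8 lower than the mean (28.6% and 19%, median −0.00737, or −0.147 with undetected lines at their bound). RSAD2, HERC6 and IFIT5, which entered the test only with the JURKAT arrays, were higher than in each line, RSAD2 at 7.73, 7.60 and 7.78, whereas MX2 and IFI35 were lower than in each. Of 16 glucocorticoid genes 6 were higher and 6 lower than the mean (37.5% each). TSC22D3 (GILZ), a classical target of the receptor, was undetected in JURKAT (5.92, 5.78 and 5.88) and detected on all 12 other arrays, at least 2.07-fold lower than SUPT1, and the NF-kappaB inhibitor NFKBIA was at 10.99, 11.16 and 11.20 against 12.02 to 14.08. The receptor NR3C1, at 7.49 ± 0.13, did not differ from HDMAR (7.49 to 7.56) or SUPT1 by the rule. It was 0.92 log2 units below the mean, with KARPAS at 9.26 to 9.52 and HH at 8.92 to 9.25. Homing and adhesion genes were lower for 17 of 48 and higher for 4 (35.4% and 8.33%, median −0.570, or −0.469 at the bounds), with RGS1, CCR7 and CD44 among the lower. The endothelial and leukocyte adhesion molecule PECAM1 (8.82, 8.79 and 8.62) was higher than in each line.

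For the next lists the shares of all genes tested were 11.8% higher and 10.1% lower than the mean. Of 29 cell cycle genes 1 (CCNB1, 1.13, or 0.88 without SUPT1) was higher than the mean and none lower (median 0.0436), and of 36 ribosomal protein genes 2 were higher and 1 lower (median 0.0869). The drug targets and transporters of CHOEP had 6 of 30 higher and 3 lower (median 0.1), none of them different from each line. Cytotoxic genes were lower for 7 of 17 and higher for 3 (41.2% and 17.6%, median −0.842), p53 and CDK inhibitor genes lower for 3 of 24 and higher for 2, and cytoskeletal genes higher for 5 of 23 and lower for 3.

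The same contrast was made in the CHOEP-treated cultures, which are other cultures of the same lines on the same chips. Of the 374 higher genes 314 were again higher than in each line, and of the 151 lower genes 111 were again lower. None was called in the opposite direction, and all 374 and all 151 kept the sign of their difference from the mean. The medians were 2.56 and −2.26 in treated cells. The difference itself changed by at least 2-fold (adjusted p under 0.05) for 40 of 11955 genes, 2 of them among the higher and 1 among the lower genes. TAL1 was at 9.69, 9.66 and 9.71 in treated JURKAT cells, and ALDH1A2 at 13.52, 13.62 and 13.59. Among genes named above, MSH6, PHLPP1, PSMB9 and MX2 were not again lower than in each line. CD79A, IGLL1, PECAM1, SLA2 and TSC1 were not again higher than in each. In treated cells PHLPP1 was at 6.17 to 6.24 in JURKAT and 5.98 to 6.51 in HH. MX2 was at 6.55 to 6.71 and 6.11 to 6.54 in the same lines, and MSH6 at 11.21 to 11.44 in JURKAT and 11.73 to 11.82 in HDMAR.

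**Figure D5:**
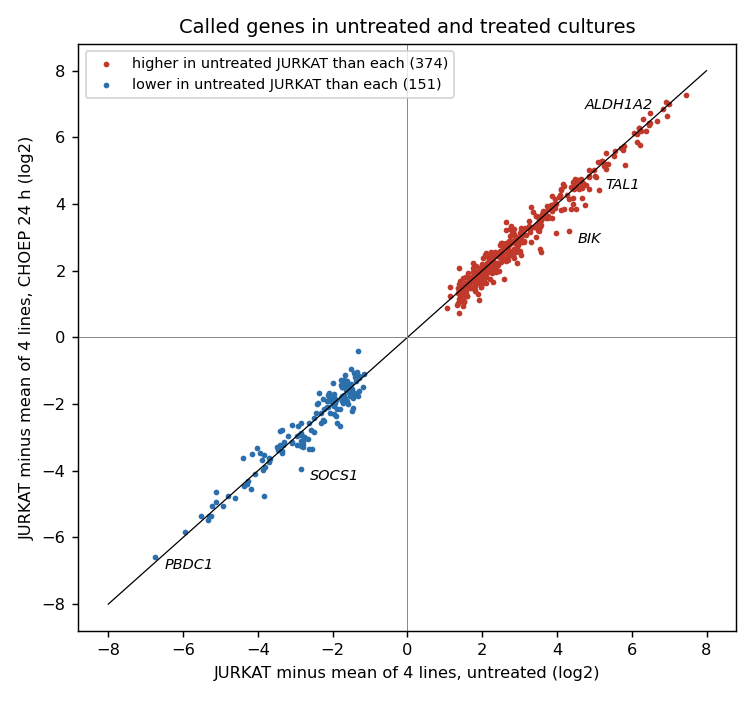
Difference of JURKAT from the mean of the 4 lines in CHOEP-treated cultures (vertical axis, log2) against the same difference in untreated cultures (horizontal axis, log2), for the 374 higher (red) and 151 lower (blue) genes, with the diagonal of equality. All points keep their sign, and BIK and SOCS1 lie off the diagonal, at 3.18 and −3.94 after treatment against 4.31 and −2.85 before.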

How the data were processed

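The authors deposited signal intensities of each array from BeadStudio (version 3 in the submitters' processing notes), not normalised, with a detection p-value per probe, and log2 values that the lumi package had normalised by robust splines. The intensities were background-corrected with the detection p-values, quantile normalised over the 30 arrays and converted to log2 by neqc in limma 3.58.1 (R 4.3.3, offset 16). Of 48107 probes 784 had no values. Probes were named from the platform annotation (30113 with 1 symbol, 8 with several and 17202 with none, 30074 updated through Entrez numbers). A probe entered the fit if 3 or more of the 15 untreated arrays detected it at p under 0.01 (21201 probes, of which 16271 had 1 symbol), and the probe with the highest mean stood for a gene (11955 genes).

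A moderated linear model in limma with 5 line means and 10 residual degrees of freedom compared JURKAT with each line and with the mean of the 4 line means, with Benjamini-Hochberg adjustment over all kept probes. Thresholds were those of the study's methods, 2-fold and an adjusted p under 0.05. The steps were tested on simulated data. Intensities limit precision through the number of arrays, since no counts lie behind them.

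The members and gene lists were chosen with earlier results of these data known. Named genes were the 12 higher and 12 lower with the largest smallest difference, detected on all 3 JURKAT arrays or all 12 others respectively, 6 each measured on both sides, up to 4 a list, and genes of interest in T-ALL whatever their values. Provisional symbols were passed over. Some genes of interest were not analysed here. Other genes named in the text were chosen after their values were seen.

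Replicate numbers follow the position on the chip, and the titles do not say whether cultures of the same number were handled together. Arrays of the same number deviated together (r above 0.1) in 5 of 30 pairs of arrays from different lines (−0.151 to 0.579). Among the 12 pairs that involve JURKAT 0 did. Alternatives were other normalisations, filters, folds, probe rules, reference lines and leaving out each array.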

Additional observations from a re-analysis of the deposited data

Results flagged for a closer look

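In 5 of the named genes the difference between JURKAT and the mean of the 4 lines was itself different in CHOEP-treated and untreated cultures by more than 2-fold, by the test of that difference in the fit over all 30 arrays (adjusted p in limma). Values are as fitted, with undetected signals at their measured level. The CHOEP dose was not the same for all lines, so line and dose cannot be told apart in these changes. For CD160, a receptor of cytotoxic cells undetected in JURKAT and SUPT1, it changed by −2.451 (from −2.722 to −5.172, adjusted p = 4.47e-13), and the treated HH and KARPAS arrays stood at 13.38 to 13.58 and 12.12 to 12.25. For the cytokine IL22, undetected in JURKAT, it changed by 1.228 (from −3.166 to −1.938, adjusted p = 2.28e-05). For RGS1, a regulator of chemokine receptors undetected in JURKAT, it changed by −1.068 (from −4.491 to −5.559, adjusted p = 0.000654). For SOCS1 it changed by −1.09 (from −2.85 to −3.94, adjusted p = 0.000669), with treated JURKAT arrays at 6.57 to 6.82. For BIK it changed by −1.126 (from 4.31 to 3.184, adjusted p = 0.00413), with treated JURKAT arrays at 10.10 to 10.41 and treated HH arrays at 8.71 to 8.89. From untreated to treated, the JURKAT mean itself changed by −0.053 log2 units for CD160, 0.044 for IL22 and 0.041 for RGS1. For SOCS1 and BIK the JURKAT mean changed by 0.413 and 0.025.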

How the results depend on the processing

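Counts are given in the order higher than each line, lower than each, higher than the mean and lower than the mean, beside 374, 151, 1407 and 1203. Quantile normalisation without background correction gave 245, 74, 899 and 705, and the authors' log2 values 258, 74, 945 and 721, where the 258 and the 74 were all among the genes of the main analysis. Without a fold threshold the counts were 904, 674, 3888 and 4099, and at 4-fold 158, 38, 489 and 315. With lines in place of arrays as replicates, 37 genes were higher and 1 lower than the mean (484 genes had an unadjusted p under 0.05), so the calls describe these 5 lines. Without KARPAS as a reference 578 and 257 genes were higher and lower than each remaining line, and without SUPT1 295 were lower. A model with the replicate number as a block left 374, 151, 1407 and 1203. Leaving out 1 array gave 194 to 378, 147 to 161, 1214 to 1425 and 1094 to 1234. The low end of the first range came with a JURKAT array left out (194 to 200), because genes detected in JURKAT alone then reach 2 arrays and miss the filter. With the probe set kept, an alternative chosen after seeing the data, it was 373 to 378.

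Of 4263 values of the 132 named genes, 4096 kept their direction and side of the thresholds, 146 no longer passed, 13 passed anew, and 8 changed sign. Most of the 146 came from the setting with lines in place of arrays as replicates. There most called named genes no longer passed, among them ALDH1A2, LMO1, MYCN, GIMAP4, PRKCB, INPP5D, HLA-B, WAS, AP3B1 and BIK. The 8 that changed sign were CD28 (−0.32), CD3E (−0.81), CD3G (−0.80), GATA3 (−0.54) and ZAP70 (−0.12) without KARPAS, and CD28 (−0.33), LYL1 (0.60) and ZAP70 (−0.026) without HH. The cause was not tested. The median over all genes lay between −0.0298 and 0.0549 under the other scalings. Signals near the detection limit bound what can be said of genes undetected in a line.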

Other observations

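Genes that lie next to each other differed in the same direction at several places. In the order of 11934 tested genes along the chromosomes of GRCh38.p14, 16 runs of at least 4 neighbours differed from the mean of the lines in 1 direction, 92 genes in all. Some were runs of near-identical or related genes, those of GAGE, GIMAP and MHC class II and, on the X chromosome, BEX2, BEX3 and 4 TCEAL genes, which were higher by 1.86 to 6.13 log2 units. Others did not share a gene family name. On chromosome 10, RHOBTB1, TMEM26, CABCOCO1, ARID5B, RTKN2 and ZNF365 were higher, by 1.21 to 3.83 log2 units, 4 of them than in each line. A run of 8 from AFAP1L2 to PDZD8 on the same chromosome was higher by 1.12 to 3.71. On chromosome 4 SCOC, CLGN, ELMOD2, UCP1, TBC1D9 and RNF150 were higher by 1.11 to 4.12, and SH3RF1, CLCN3, HPF1, MFAP3L, AADAT and GALNT7 by 1.09 to 4.51, again 4 of 6 than in each line in both runs. These genes were chosen after their values were seen, and the number of runs was not tested.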
